A study of Ovis aries with 22 samples.

Results

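The 10 genes described here encode enzymes that cut the matrix of the arterial wall and the proteins that inhibit them. They are the matrix metalloproteinases MMP2, MMP11, MMP14, MMP16 and MMP19, the lysosomal protease cathepsin K (CTSK), the membrane-anchored metalloproteinase ADAM12, and the tissue inhibitors of metalloproteinases TIMP1, TIMP2 and TIMP3. They were chosen by name, with earlier results of these data known. Each had 1 row in the count tables of 26200 gene symbols. All 10 passed the filter on low counts that left 14979 genes for testing. RNA was sequenced from the sinus wall of sheep great arteries. Autograft sinus came from 3 sheep in which the pulmonary root had been moved into the aortic position (the Ross procedure), sampled 6 months after surgery. Native aortic sinus and native pulmonary sinus came from 4 further sheep, named D3 to D6 in the labels, each of which gave both tissues. The labels name no genotype, drug, age, sex or breed for any group. No operated sheep gave native tissue and no group had surgery without a graft, so the graft, the operation and the animals cannot be told apart as sources of a difference. The aortic library of D3 (aortic replicate 1) is labelled as Ross surgery although the design places native tissue in sheep without an operation. It was kept as aortic sinus, and results that change without D3 are given with and without it.

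Matrix metalloproteinases are zinc enzymes made as inactive precursors. MMP2 is a gelatinase that cuts denatured collagen, type IV collagen and elastin, and its precursor is activated at the cell surface by MMP14, with TIMP2 acting as the bridge between them. The TIMPs block the active site of the enzymes, and cathepsin K, which cuts collagen and elastin in acid, is held back by the cystatins instead. In the arterial wall these genes are made by smooth muscle cells, fibroblasts and macrophages, and loss of elastic fibres to such enzymes is a known feature of aortic aneurysm.

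Libraries held 17380599 to 20741334 counts, and levels are given as CPM (library counts scaled to a common total, with TMM scaling for differences in composition). On the first principal component of log2 CPM, which held 37.9% of the variance, the aortic libraries spanned -30.6 to 8.46. Pulmonary replicate 1 was close to them at 9.34, away from the remaining pulmonary libraries (-67.6 to -29.5). Autograft replicate 1 stood apart on the second component, at 64.1 against -31.5 to 24.2 for all others. Each comparison was therefore also run without these 2 libraries. Smooth muscle markers were abundant in every library, with a summed level over 6 genes of 19312 to 40629 CPM in autograft, 41493 to 59883 CPM in aortic sinus and 41738 to 71816 CPM in pulmonary sinus. In bulk tissue, fewer cells of a type and less RNA per cell cannot be told apart. The 2 autograft comparisons share the same 3 autograft libraries and are therefore not independent.

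Against pulmonary sinus, the tissue the autograft was made from, MMP2, MMP16, CTSK and ADAM12 rose and MMP11 fell in the autograft, so that 5 of the 10 genes changed, against 11.3% of all genes tested (edgeR quasi-likelihood test, Benjamini-Hochberg adjusted p under 0.05). By direction, 4 rose, against 6.05% of all genes, and 1 fell, against 5.29%. An unadjusted p under 0.05 was found for 8 of the 10, against 30.6% of all genes. The median log2 fold change of the 10 was 0.996, against 0.00 over all genes tested. For 6 of the 10 the autograft and pulmonary libraries were fully separated, against 22.1% of all genes. Against aortic sinus, the tissue native to the new position, MMP2 and ADAM12 rose and MMP11 fell, 3 of 10 against 2.38% of all genes. Without D3, 1 of the 10 (MMP2) and 110 genes in all were called, and the fits that left out 1 library called 1 to 3 of the 10, with 1 in 6 of the 7, and 25 to 210 genes in all. The 2 that rose stood against 0.948% of all genes and the 1 that fell against 1.43%, and 7 of the 10 had an unadjusted p under 0.05, against 23% of all genes. The median there was 0.56, and 5 of the 10 had groups that did not overlap, against 20.6% of all genes. Between aortic and pulmonary sinus no gene of the 10 changed, and the share called was 0% of all genes. Because the 10 genes were chosen with earlier results of these data known, their counts beside the shares of all genes are a description, not a test.

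**Figure D1:**
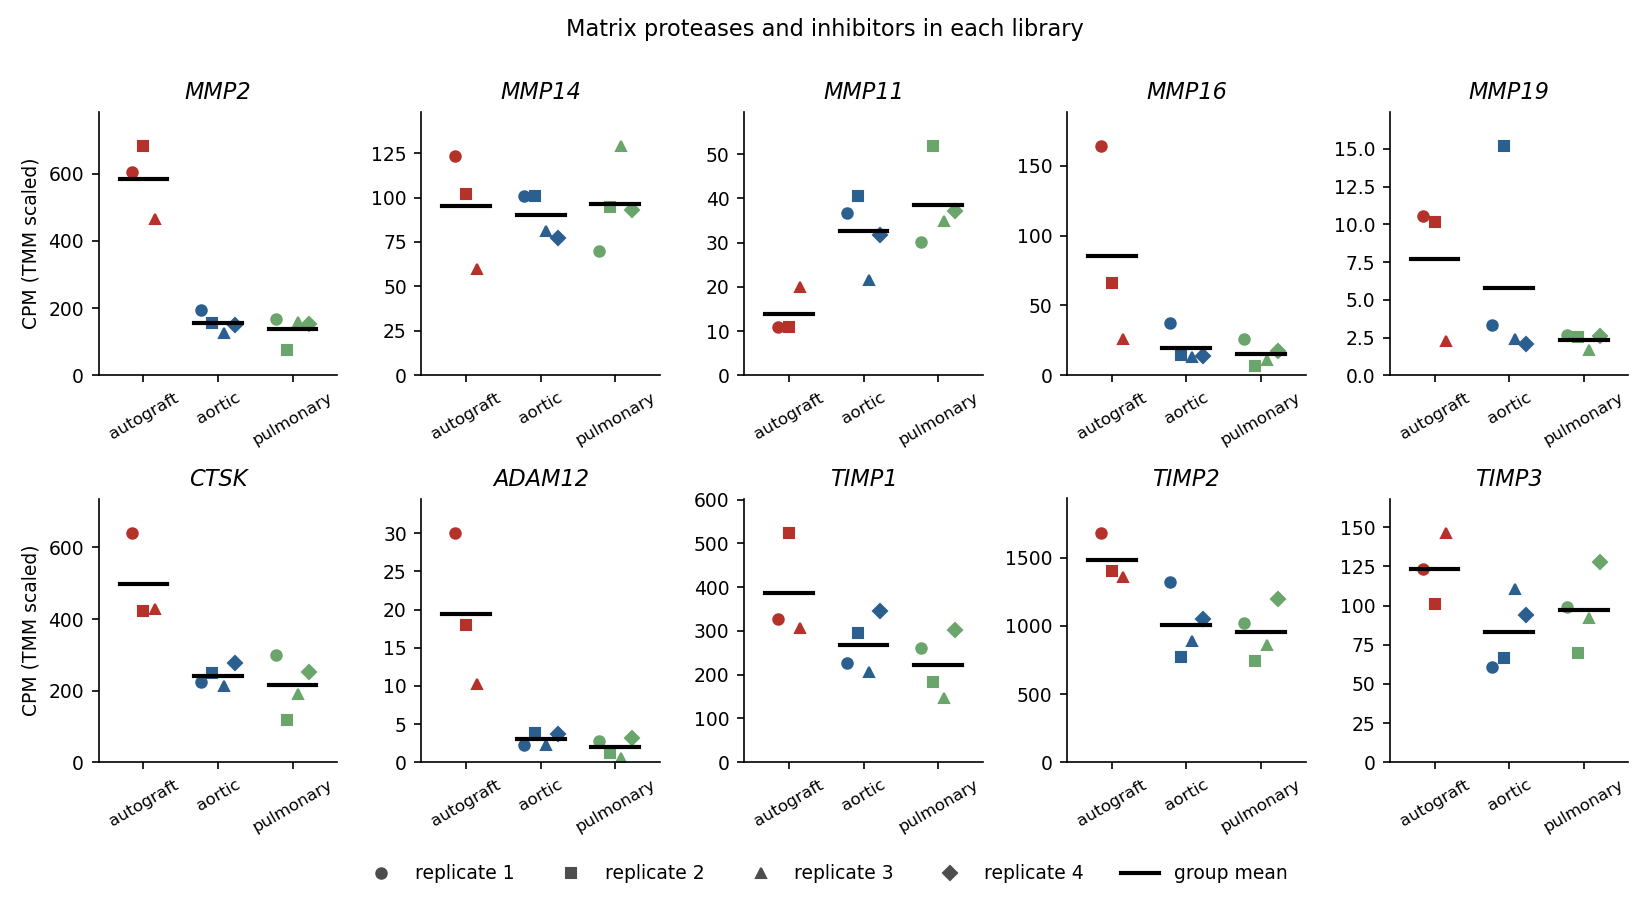
TMM-scaled CPM (linear axis from 0) of each of the 10 genes in each library, with autograft, aortic and pulmonary sinus side by side, a marker shape for each replicate and a line at the group mean. The 3 autograft libraries sit above all native libraries for MMP2, CTSK and ADAM12 and below all of them for MMP11, while for MMP14 the groups lie over one another.

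MMP2 had the narrowest autograft spread among the genes that rose. Its level was 604, 682 and 464 CPM in autograft replicates 1 to 3. In aortic sinus it was 195, 155, 126 and 149 CPM, and in pulmonary sinus 167, 74.5, 157 and 154 CPM. Every autograft library was above every native library, and the lowest of them was more than 2 times the highest native value. The mean of 584 ± 110 CPM (SD, n = 3) stood against 156 ± 28.9 CPM in aortic sinus (SD, n = 4) and 138 ± 42.7 CPM in pulmonary sinus (SD, n = 4). The log2 fold change was 2.08 ± 0.26 (SE) against pulmonary sinus (edgeR adjusted p = 0.00420) and 1.90 ± 0.26 against aortic sinus (edgeR adjusted p = 0.0109). With any 1 library left out, the edgeR adjusted p for MMP2 stayed between 0.00318 and 0.0216 against pulmonary sinus and between 0.0172 and 0.0469 against aortic sinus.

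MMP14, the membrane-bound activator of the MMP2 precursor, did not pass the test in any comparison. Its level was 123, 102 and 59.6 CPM in autograft, 101, 101, 81.4 and 77.4 CPM in aortic sinus, and 69.7, 94.5, 129 and 93.1 CPM in pulmonary sinus. The means were 95.1 ± 32.5 CPM in autograft (SD, n = 3), 90.2 ± 12.5 CPM in aortic and 96.6 ± 24.5 CPM in pulmonary sinus (SD, n = 4 each), and the autograft libraries spanned most of the native range. The log2 fold change was -0.02 ± 0.25 against pulmonary sinus (edgeR adjusted p = 0.963) and 0.08 ± 0.25 against aortic sinus (edgeR adjusted p = 0.880), and the sign of both turned with the setting. MMP16, another membrane-type enzyme that can also activate the MMP2 precursor, varied most within the autograft. It measured 164, 66.1 and 25.8 CPM there, against 37.4, 14.6, 13.3 and 13.7 CPM in aortic sinus and 26.2, 6.34, 10.6 and 17.0 CPM in pulmonary sinus. Autograft replicate 3 lay within both native ranges, so the groups overlapped. The log2 fold change was 2.51 ± 0.63 against pulmonary sinus (edgeR adjusted p = 0.0315) and 2.11 ± 0.62 against aortic sinus (edgeR adjusted p = 0.0895, DESeq2 adjusted p = 0.0305). Without autograft replicate 1 the rise in MMP16 over pulmonary sinus was 1.61, with an edgeR adjusted p of 0.103, and it also missed the threshold when autograft replicate 2 (0.0608) or pulmonary replicate 2 (0.0817), 3 (0.0892) or 4 (0.0594) was left out. On the log2(FPKM + 1) scale the MMP16 value was 1.49 (limma adjusted p = 0.0543), and with only autograft and pulmonary libraries in the fit the edgeR adjusted p was 0.0665.

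MMP11, or stromelysin-3, is made by stromal cells and leaves the cell already activated by furin. It was the single gene of the 10 that fell. Its level was 10.9, 10.95 and 19.9 CPM in autograft, 36.7, 40.6, 21.6 and 31.7 CPM in aortic sinus, and 30.05, 51.9, 34.8 and 37.3 CPM in pulmonary sinus. All 3 autograft libraries were below all 8 native libraries, with autograft replicate 3 just under aortic replicate 3. The log2 fold change was -1.47 ± 0.29 against pulmonary sinus (edgeR adjusted p = 0.0149), and the call was lost without autograft replicate 2 (0.0553). Against aortic sinus it was -1.23 ± 0.28 with an edgeR adjusted p of 0.0497, at the edge of the threshold. That call was lost without D3 (0.0933) and in 6 of the 7 fits that left out 1 library. It was also lost with no low-count filter (edgeR adjusted p = 0.0518), with RLE size factors (0.0526), with only the 2 groups in the fit (0.0717) and with limma-voom, alike without a replicate block by animal (0.0543) and with it (0.0539). MMP19, which cuts basement membrane proteins, had 10.6, 10.2 and 2.27 CPM in autograft, 3.35, 15.2, 2.41 and 2.09 CPM in aortic sinus, and 2.66, 2.57, 1.69 and 2.57 CPM in pulmonary sinus. Autograft replicates 1 and 2 and aortic replicate 2 were high and the other 8 libraries low, so the groups overlapped. MMP19 did not pass the test, with a log2 fold change of 1.69 ± 0.70 against pulmonary sinus (edgeR adjusted p = 0.131). Against aortic sinus it was 0.41 ± 0.69 (edgeR adjusted p = 0.758), 1.57 without aortic replicate 2 and 0.11 without autograft replicate 1.

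Cathepsin K rose over pulmonary sinus. CTSK measured 640, 422 and 427 CPM in autograft, 224, 250, 212 and 277 CPM in aortic sinus, and 301, 119, 190 and 253 CPM in pulmonary sinus. The autograft libraries did not overlap with either native group. The log2 fold change was 1.20 ± 0.27 against pulmonary sinus (edgeR adjusted p = 0.0220), and the call was lost without pulmonary replicate 3 (0.0640) or autograft replicate 1 (0.0561), and with only the 2 groups in the fit (0.0657). Against aortic sinus CTSK did not pass, at 1.04 ± 0.27 (edgeR adjusted p = 0.0669). That difference was called by DESeq2 (adjusted p = 0.00423) and by edgeR with only the 2 groups in the fit (adjusted p = 0.0392).

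CTSK is the hallmark protease of osteoclasts and is also made by macrophages and fibroblasts, so their markers were read beside it. Of 5 osteoclast genes, 3 were at or near 0: OCSTAMP had no count in any of the 11 libraries, which at 3 counts allows up to 0.145 to 0.173 CPM, and CALCR and DCSTAMP had at most 2 counts. ATP6V0D2 had 13, 10 and 3 counts in the autograft libraries and at most 5 in any native one. ACP5, the only one of the 5 that passed the low-count filter, is also made by macrophages and was at 22.8 ± 9.41 CPM in autograft (SD, n = 3), 12.4 ± 4.71 CPM in aortic sinus and 8.59 ± 5.43 CPM in pulmonary sinus (SD, n = 4 each; edgeR adjusted p = 0.328 and 0.0940). The list summed to 12.3 to 30.6 CPM in autograft, 5.62 to 16.1 CPM in aortic sinus and 3.42 to 15.0 CPM in pulmonary sinus. The macrophage markers summed to 1022, 679 and 122 CPM in autograft replicates 1 to 3, to 103 to 322 CPM in aortic sinus and to 49.2 to 246 CPM in pulmonary sinus. Of 8 macrophage markers tested, 3 rose over pulmonary sinus (CD68, CD14 and LYZ, kept in 2, 3 and 6 of 7 fits that left out 1 library) and 0 over aortic sinus. Of all genes tested, 6.05% rose over pulmonary and 0.948% over aortic sinus. The fibroblast markers summed to 8926 to 11957 CPM in autograft, 4707 to 5985 CPM in aortic sinus and 2602 to 7559 CPM in pulmonary sinus, which did not overlap with the autograft, and 1 of 6 rose (DCN, against both native tissues). The DCN call against aortic sinus was kept in 0 of 7 fits that left out 1 library and had an edgeR adjusted p of 0.0534 without D3, and that against pulmonary sinus was kept in 6 of 7. Endothelial markers summed to 123 to 1443 CPM in autograft, 215 to 533 CPM in aortic sinus and 109 to 381 CPM in pulmonary sinus. Over pulmonary sinus 1 of 6 rose (TEK, kept in 2 of 7 fits that left out 1 library). All 6 had an unadjusted p under 0.05 there, against 30.6% of all genes. Markers of T and NK cells summed to 27.5 to 36.5 CPM in autograft, 4.26 to 8.35 CPM in aortic sinus and 1.88 to 6.67 CPM in pulmonary sinus. Those of B cells summed to 7.69 to 8.49 CPM, 1.09 to 2.40 CPM and 0.796 to 1.36 CPM in the same order, and neither sum overlapped between autograft and native libraries. The part of these cell types in the levels of CTSK and the metalloproteinases was not tested.

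ADAM12, a membrane-anchored metalloproteinase that sheds growth factors and cuts binding proteins of insulin-like growth factor, had the largest fold change of the 10. Its level was 30.04, 18.0 and 10.2 CPM in autograft, 2.23, 3.80, 2.296 and 3.71 CPM in aortic sinus, and 2.77, 1.20, 0.61 and 3.20 CPM in pulmonary sinus. The lowest autograft library was above the highest native one. The autograft mean was 9.99 times the pulmonary mean and 6.45 times the aortic mean. ADAM12 had a log2 fold change of 3.32 ± 0.53 against pulmonary sinus (edgeR adjusted p = 0.00914), where every fit that left out 1 library kept the call (0.00639 to 0.0301). Against aortic sinus it was 2.69 ± 0.51 (edgeR adjusted p = 0.0320), and the call was lost without D3 (0.0707), without pulmonary replicate 1 and autograft replicate 1 together (0.0574) and in 6 of the 7 fits that left out 1 library (largest adjusted p 0.0956, without aortic replicate 3). On the log2(FPKM + 1) scale the ADAM12 values were 1.21 and 1.05, since the pseudocount shrinks the change of a gene this low.

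**Figure D2:**
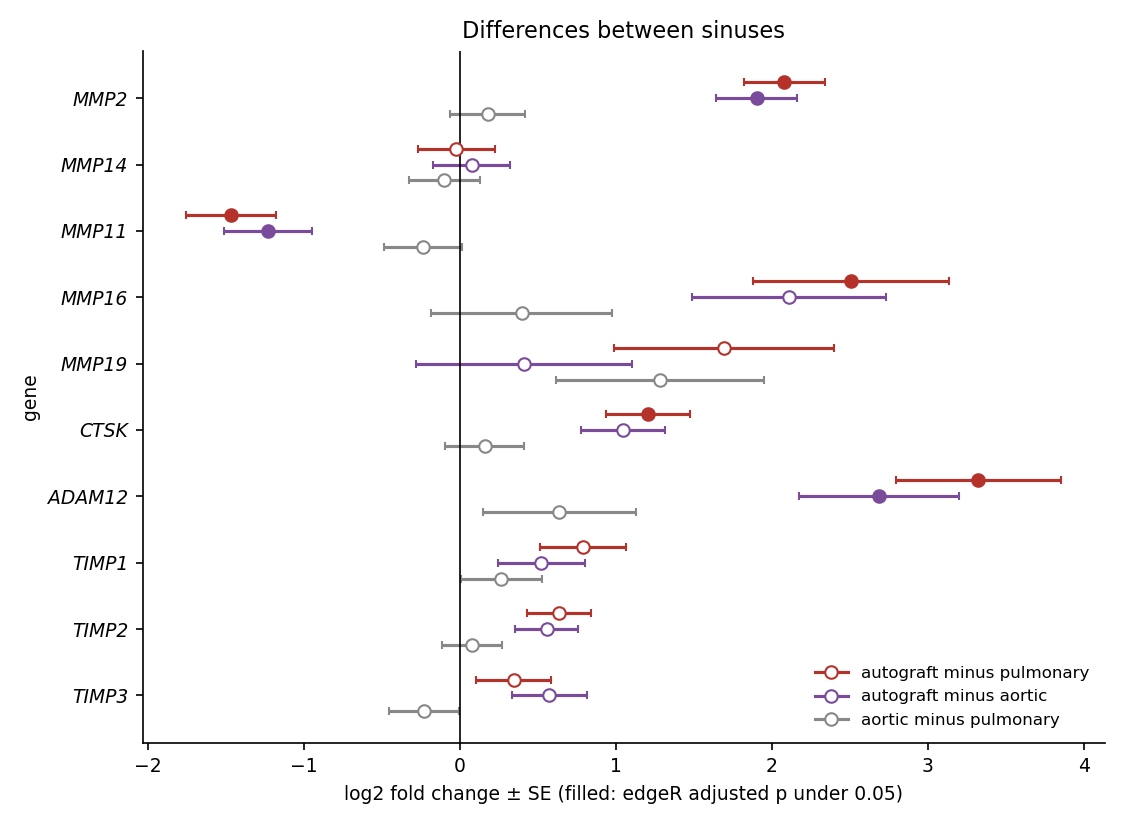
Log2 fold change ± SE of each of the 10 genes from the edgeR fit (filled where called), for autograft against pulmonary sinus, autograft against aortic sinus and aortic against pulmonary sinus. The 2 autograft comparisons share libraries; ADAM12 (3.32 and 2.69) and MMP2 (2.08 and 1.90) lie far to the right, MMP11 (-1.47 and -1.23) to the left, and the native comparison lies near 0 for most genes.

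None of the 3 inhibitors passed the test in either autograft comparison, although each had a higher mean in the autograft. TIMP1, a soluble inhibitor of most secreted metalloproteinases, was at 326, 524 and 306 CPM in autograft, 226, 296, 206 and 345 CPM in aortic sinus, and 261, 184, 146 and 301 CPM in pulmonary sinus. The autograft libraries lay above all pulmonary libraries but overlapped with the aortic ones. TIMP1 had a log2 fold change of 0.79 ± 0.28 against pulmonary sinus (edgeR adjusted p = 0.0847) and 0.52 ± 0.28 against aortic sinus (edgeR adjusted p = 0.285). TIMP2, which both inhibits MMP2 and takes part in its activation, was at 1682, 1403 and 1362 CPM in autograft, 1322, 773, 889 and 1050 CPM in aortic sinus, and 1021, 745, 860 and 1196 CPM in pulmonary sinus. Its autograft libraries lay just above all native ones, and their mean was 1.47 times the aortic and 1.55 times the pulmonary mean. For TIMP2 the value was 0.63 ± 0.20 against pulmonary sinus (edgeR adjusted p = 0.0675) and 0.56 ± 0.21 against aortic sinus (edgeR adjusted p = 0.146). DESeq2 called TIMP1 (adjusted p = 0.0331) and TIMP2 (adjusted p = 0.0188) against pulmonary sinus. TIMP3, which is bound to the matrix and also inhibits ADAM enzymes, was at 123, 101 and 146 CPM in autograft, 61.0, 66.8, 110 and 94.2 CPM in aortic sinus, and 99.1, 69.9, 92.2 and 128 CPM in pulmonary sinus. The TIMP3 groups overlapped, with a log2 fold change of 0.35 ± 0.24 against pulmonary sinus (edgeR adjusted p = 0.357) and 0.57 ± 0.24 against aortic sinus (edgeR adjusted p = 0.187). TIMP1 shares its place in the RefSeq annotation with ARAF (849 to 1654 counts per library), SYN1 and ZNF81, TIMP2 with CEP295NL and TIMP3 with SYN3, and TIMP2, CTSK, MMP16 and ADAM12 each with 1 gene that has no name there. The strand setting of the counting is unknown, so reads of such overlapping genes could not be separated further.

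Protease and inhibitor were next compared within each library, as the difference of their log2 CPM (a log2 ratio of RNA levels, which is not a ratio of proteins). The log2 ratio of MMP2 to TIMP2 was -1.48, -1.04 and -1.55 in autograft, -2.76, -2.31, -2.82 and -2.82 in aortic sinus, and -2.61, -3.32, -2.45 and -2.96 in pulmonary sinus. All autograft libraries lay above all native ones, by a mean of 1.48 over pulmonary and 1.32 over aortic sinus (two-sided exact permutation test, p = 0.0286 in both, which is the smallest that 3 against 4 libraries can give). With adjustment over the 18 tests of 6 ratios in 3 comparisons this became 0.0857, and no ratio passed in any comparison. With so few libraries, most of the 18 tests would have had to reach the smallest possible p for any to pass. The lack of a pass therefore does not show that the ratios were alike. The ratio of MMP2 to TIMP1 was 0.89, 0.38 and 0.60 in autograft, and it was below 0 in 7 of the 8 native libraries, the exception being pulmonary replicate 3 at 0.10. Its mean difference was 1.33 against pulmonary sinus (exact permutation p = 0.0571, adjusted 0.147) and 1.39 against aortic sinus (exact permutation p = 0.0286, adjusted 0.0857). The ratio of MMP2 to TIMP3 was 2.24 ± 0.55 in autograft (SD, n = 3), 0.93 ± 0.65 in aortic sinus and 0.47 ± 0.34 in pulmonary sinus (SD, n = 4 each). Autograft replicate 3 (1.66) and aortic replicate 1 (1.67) overlapped there, and the exact permutation p was 0.0286 against pulmonary sinus and 0.0857 against aortic sinus, before adjustment.

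The ratio of ADAM12 to TIMP3 was -2.78 ± 0.93 in autograft (SD, n = 3), -4.74 ± 0.59 in aortic sinus and -5.78 ± 0.86 in pulmonary sinus (SD, n = 4 each), without overlap of the autograft with either (exact permutation p = 0.0286 in both, adjusted 0.0857). MMP14 to TIMP2 had a lower mean in the autograft, at -4.02 ± 0.43 against -3.46 ± 0.38 in aortic and -3.32 ± 0.55 in pulmonary sinus (exact permutation p = 0.114 and 0.229). All 3 autograft libraries lay just below the aortic ones (highest autograft -3.77, lowest aortic -3.76) and overlapped with the pulmonary ones. Cathepsin K was set against CST3, the gene of cystatin C, its main extracellular inhibitor. The ratio of CTSK to CST3 was -1.69 ± 0.09 in autograft (SD, n = 3), -1.78 ± 0.10 in aortic sinus and -1.89 ± 0.35 in pulmonary sinus (SD, n = 4 each), with overlapping libraries (exact permutation p = 0.286 and 0.6). On the log2(FPKM + 1) scale its differences were 0.44 over aortic and 0.69 over pulmonary sinus, and those of ADAM12 to TIMP3 were 0.39 and 0.78. CST3 itself rose, to 1624 ± 507 CPM (SD, n = 3) from 765 ± 152 CPM in pulmonary and 824 ± 53.0 CPM in aortic sinus (SD, n = 4 each). Its log2 fold change was 1.09 ± 0.20 (edgeR adjusted p = 0.0139) and 0.98 ± 0.20 (edgeR adjusted p = 0.0372, and 0.0743 without D3). The call of CST3 was kept in 7 of 7 fits that left out 1 library against pulmonary sinus and in 1 of 7 against aortic sinus (up to 0.113, without aortic replicate 3).

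**Figure D3:**
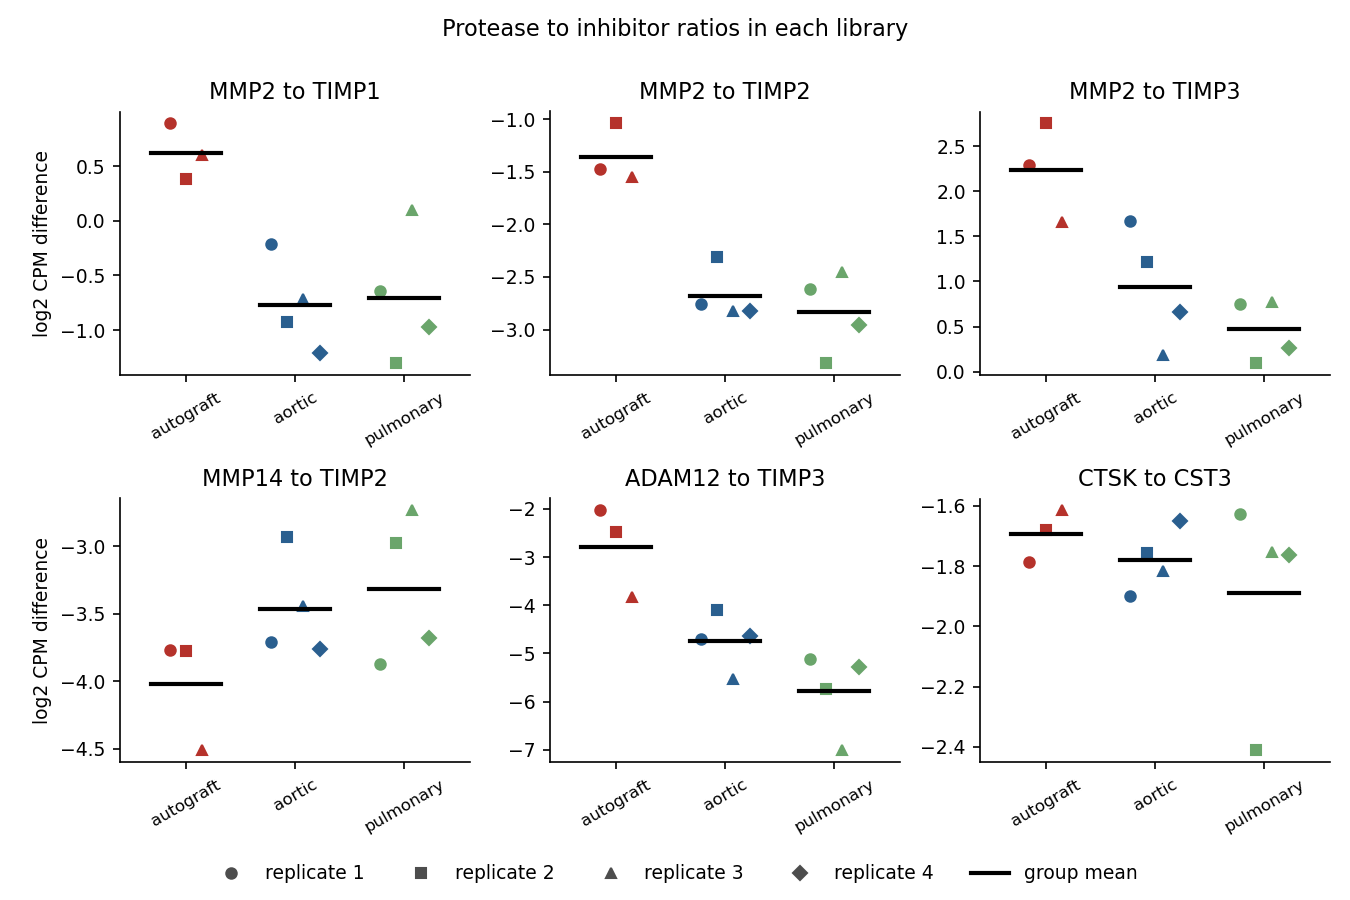
Log2 ratio of protease to inhibitor CPM in each library for 6 pairs, by group, with a line at the group mean. The autograft libraries stand above all native libraries for MMP2 to TIMP1, MMP2 to TIMP2 and ADAM12 to TIMP3. They overlap with the native libraries for CTSK to CST3.

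Levels of different genes were compared per transcript length, with the authors' deposited FPKM (fragments per kilobase of transcript and library size, mean of 2 runs), whose distribution had been made equal between libraries before deposit. TIMP1 was the highest of the 10 in every group, at 503 ± 90.5 FPKM in autograft (SD, n = 3) and means of 353 in aortic and 295 in pulmonary sinus. In both native tissues the order went on with TIMP2 and TIMP3 (109 to 127 FPKM), CTSK (92.9 and 76.9), MMP2 (85.2 and 75.6), MMP14 (49.2 and 54.7) and MMP11 (15.8 and 19.6). MMP19, MMP16 and ADAM12 were the lowest, at 0.213 to 2.51 FPKM. In the autograft MMP2 came next, at 290 ± 39.6 FPKM (SD, n = 3), followed by CTSK (226), TIMP3 (169), TIMP2 (152), MMP14 (58.4), MMP11 (8.24), MMP16 (4.95), MMP19 (3.30) and ADAM12 (1.86). The libraries overlapped between MMP2 and CTSK and between TIMP3 and TIMP2 in the autograft, so the order of these neighbours was not separated. The same held from MMP11 down to ADAM12. In pulmonary sinus TIMP3, TIMP2, CTSK, MMP2 and MMP14 overlapped each with the next, and in aortic sinus TIMP2, TIMP3, CTSK and MMP2 did, as did MMP19 and MMP16 in both.

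MMP2 made up 75%, 81.2% and 83.6% of the summed FPKM of the 5 metalloproteinases in autograft replicates 1 to 3. Its share was 50.6% to 58.2% in aortic sinus and 31.4% to 61.8% in pulmonary sinus, below every autograft library. The summed FPKM of the 3 TIMPs was 2.04 to 2.52 times that of the 5 metalloproteinases in autograft, 3.01 to 4.87 times in aortic sinus and 2.302 to 4.25 times in pulmonary sinus. Pulmonary replicate 3 (2.302) lay within the autograft range and all other native libraries above it. These sums cover only the genes described here and leave out other members of both families. MMP23B, which is not in them, had a mean of 38.9 CPM in autograft, 45.4 CPM in aortic and 36.1 CPM in pulmonary sinus. MMP28, also left out and singled out after its values were seen, had 44.7, 51.8 and 46.5 CPM in the same order. These CPM are not per length and cannot be set beside the FPKM sums.

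**Figure D4:**
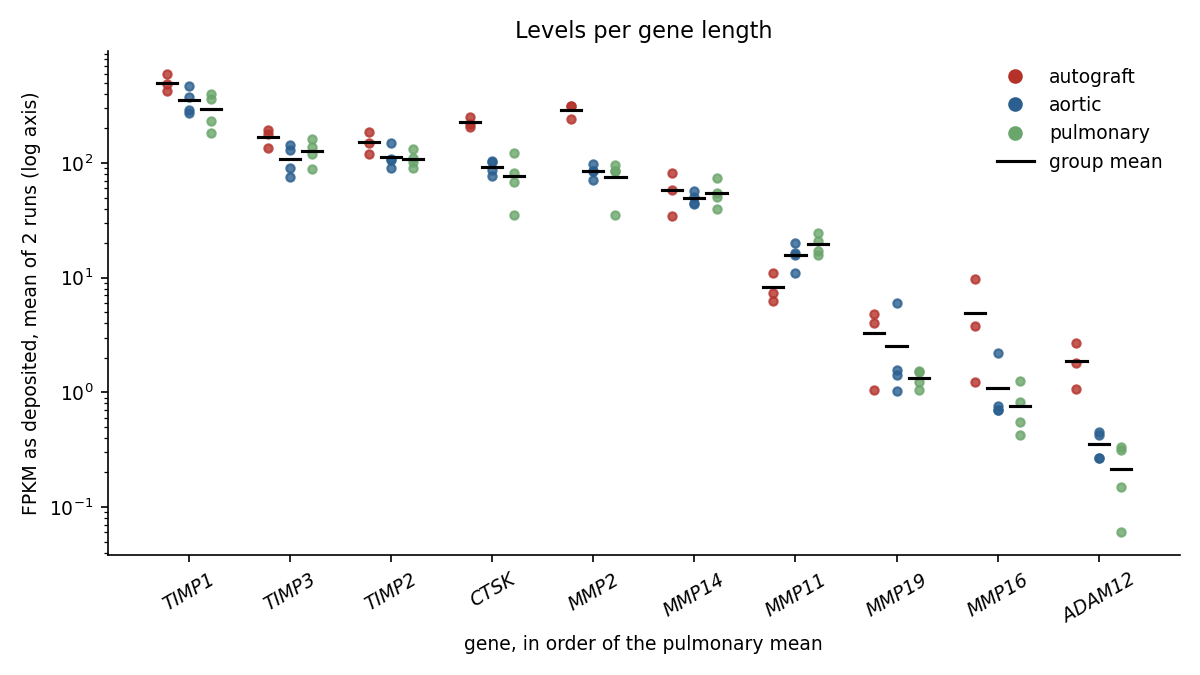
Authors' deposited FPKM (log axis) of the 10 genes, for each library in the 3 groups. Genes run from left to right by their pulmonary mean, and lines mark group means. MMP2 stands at 290 FPKM in autograft and at 85.2 and 75.6 in the native tissues, and MMP16, MMP19 and ADAM12 are lowest in all 3.

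Between aortic and pulmonary sinus no gene of the 10 passed the test. No gene of the 10 had groups that did not overlap (1.42% of all genes did), and none had an unadjusted p under 0.05 (2.04% of all genes did, 306 genes), with edgeR, while DESeq2 also called 0 genes. Their median log2 fold change (aortic over pulmonary) was 0.17, and 9 of the 10 lay between -0.24 (MMP11) and 0.64 (ADAM12). The other was MMP19 (1.28 ± 0.66), which was 0.13 without aortic replicate 2.

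The wider families were read from lists of related genes. Among all genes tested, 6.05% rose and 5.29% fell against pulmonary sinus, and 0.948% rose and 1.43% fell against aortic sinus. Of 14 secreted metalloproteinases with a row, 8 passed the low-count filter, and MMP2 and MMP11 were the ones that changed (1 up and 1 down in both comparisons, list median -0.46 against pulmonary sinus). The interstitial collagenases, 1 group among the enzymes that cut collagen, were close to absent. MMP8 had 0 counts in all 11 libraries, and MMP1 and MMP13 had at most 2 counts in any. These 3 and MMP9, the other gelatinase, were singled out after their values were seen. MMP9 measured 0.83 ± 0.92 CPM in autograft (SD, n = 3), 2.32 ± 4.35 CPM in aortic sinus and 1.51 ± 1.10 CPM in pulmonary sinus (SD, n = 4 each), with most of the aortic level in replicate 2 (8.85 CPM). Of 5 membrane-type enzymes tested, MMP16 was the 1 that rose over pulmonary sinus, and 0 changed against aortic sinus. Against pulmonary sinus, MMP15 had a log2 fold change of -1.02 ± 0.40 (edgeR adjusted p = 0.110). In the same comparison MMP17 was at -1.34 ± 0.67 (edgeR adjusted p = 0.198) and MMP24 at 2.02 ± 0.66 (edgeR adjusted p = 0.0699). Over aortic sinus the values were -0.88 for MMP15, -1.34 for MMP17 and 1.16 for MMP24 (edgeR adjusted p = 0.212, 0.255 and 0.298). Of 6 metalloproteinase inhibitors tested, 0 passed in either comparison, with 3 at an unadjusted p under 0.05 in each (30.6% and 23% of all genes), and the median log2 fold change was 0.71 against pulmonary and 0.56 against aortic sinus. TFPI2, a protease inhibitor of the matrix, was at 1121 ± 637 CPM in autograft (SD, n = 3) and 536 ± 258 CPM in pulmonary sinus (SD, n = 4; edgeR adjusted p = 0.116).

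Of 11 cathepsins tested, 4 rose over pulmonary sinus and 0 fell, with a median log2 fold change of 0.61, and 1 rose over aortic sinus. Over all genes tested, 6.05% rose over pulmonary and 0.948% over aortic sinus. Beside CTSK these were CTSC, which activates serine proteases of immune cells (1.77 ± 0.51, edgeR adjusted p = 0.0469), CTSH (0.88 ± 0.21, edgeR adjusted p = 0.0268) and CTSV (0.65 ± 0.15, edgeR adjusted p = 0.0256). CTSV also rose over aortic sinus (0.73 ± 0.15, edgeR adjusted p = 0.0376), but it is close in sequence to CTSL, so the split of reads between these copies is uncertain. In fits that left out 1 library, CTSC stayed called in 2 of 7, CTSH and CTSV in 3 of 7 each against pulmonary sinus, and CTSV in 1 of 7 against aortic sinus (edgeR adjusted p = 0.0844 without D3). Against pulmonary sinus, 30.6% of all genes had an unadjusted p under 0.05. All 8 macrophage markers tested had one, in the same direction. Their part in the cathepsin levels was not tested.

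Of 9 ADAM genes tested, ADAM12 was the 1 that rose in each comparison, against 6.05% of all genes over pulmonary and 0.948% over aortic sinus. ADAM33, made by smooth muscle and fibroblasts, was at 292 ± 73.0 CPM in autograft (SD, n = 3) and 384 ± 53.9 CPM in pulmonary sinus (SD, n = 4; edgeR adjusted p = 0.142). Of 6 genes of plasminogen activation, which can start the activation of metalloproteinase precursors, 0 passed, with PLAT at 1.26 ± 0.46 (edgeR adjusted p = 0.0935) and PLAU at 0.94 ± 0.36 (edgeR adjusted p = 0.106) against pulmonary sinus. Of 8 genes of metalloproteinase activation and clearance, CAV1, the coat protein of caveolae, fell against pulmonary sinus. It measured 132 ± 31.1 CPM in autograft (SD, n = 3), where pulmonary sinus had 231 ± 24.4 CPM (SD, n = 4). CAV1 had a log2 fold change of -0.81 ± 0.21 (edgeR adjusted p = 0.0327), and 2 of 7 fits that left out 1 library kept it. In that comparison 5.29% of all genes fell. Caveolae are rich in smooth muscle, and of 6 smooth muscle markers 3 fell in the same comparison (MYH11, SMTN and MYOCD, kept in 4, 1 and 7 of those fits). Its part in the CAV1 level was not tested.

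Of 6 genes of matrix substrates, 3 rose over pulmonary sinus and 1 over aortic sinus, with medians of 1.12 and 0.97. The shares of all genes that rose were 6.05% and 0.948%. COL1A1, a chain of type I collagen, was at 4435 ± 679 CPM in autograft (SD, n = 3), 2021 ± 404 CPM in aortic sinus and 1660 ± 336 CPM in pulmonary sinus (SD, n = 4 each). Its log2 fold change was 1.42 ± 0.21 (edgeR adjusted p = 0.00713) and 1.13 ± 0.21 (edgeR adjusted p = 0.0281, and 0.0640 without D3). The call of COL1A1 was kept in 7 of 7 fits that left out 1 library against pulmonary sinus and in 2 of 7 against aortic sinus (up to 0.0924, without aortic replicate 3). COL3A1 (1.32 ± 0.30, edgeR adjusted p = 0.0243) and COL1A2 (0.96 ± 0.24, edgeR adjusted p = 0.0323) rose over pulmonary sinus, each in 3 of 7 fits that left out 1 library. The elastin gene ELN, singled out after its values were seen, was at 1896 ± 178 CPM in autograft (SD, n = 3). Aortic sinus had 4534 ± 1856 CPM and pulmonary sinus 4131 ± 3937 CPM (SD, n = 4 each). The autograft libraries lay below all aortic ones for ELN and overlapped with the pulmonary ones. ELN did not pass the test, with a log2 fold change of -1.26 ± 0.58 against aortic sinus (edgeR adjusted p = 0.221). Against pulmonary sinus it was -1.12 ± 0.58 (edgeR adjusted p = 0.212).

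**Figure D5:**
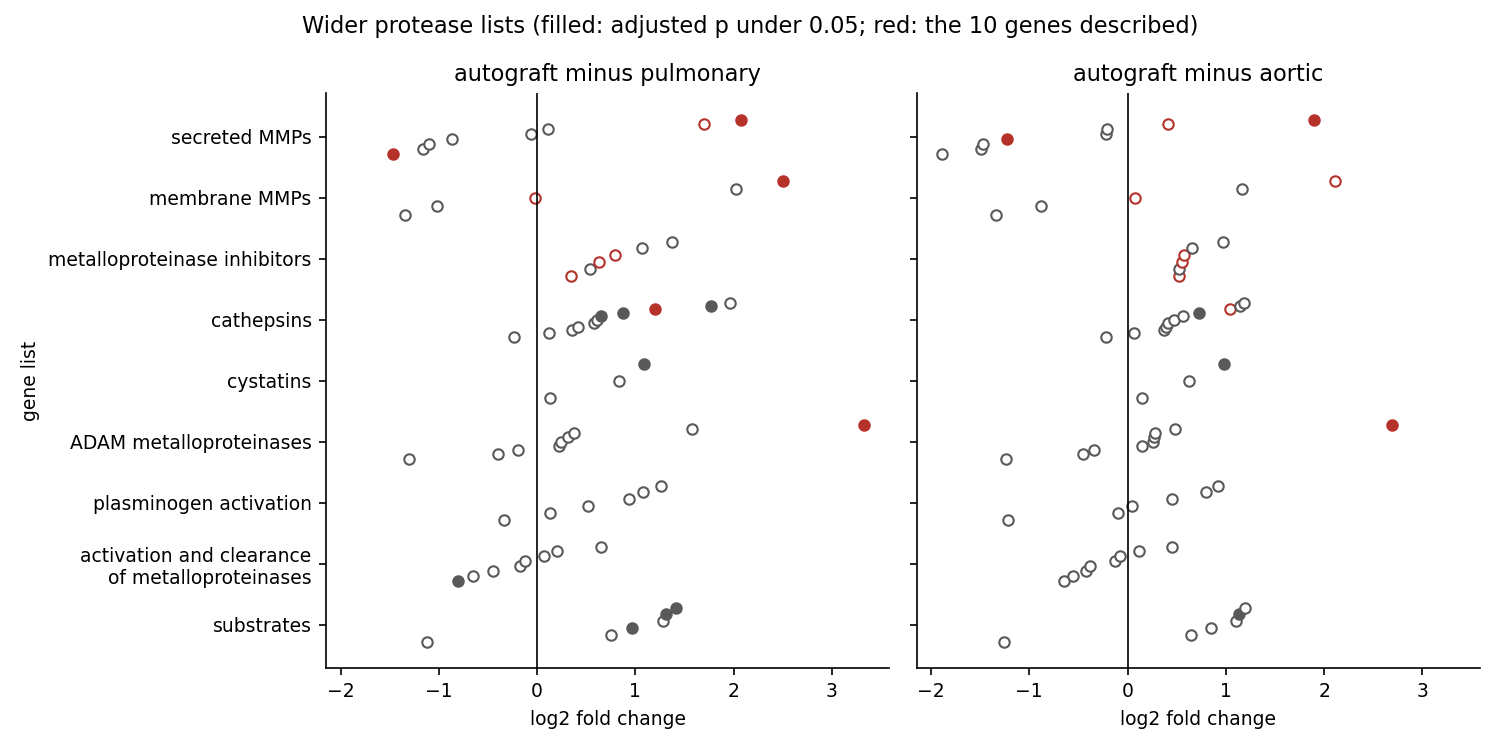
Log2 fold change of each tested gene (points, filled where edgeR called them, red for the 10 genes described) in 9 lists, for autograft against pulmonary sinus and autograft against aortic sinus. The substrates and cathepsins lie mostly above 0, and the secreted and membrane-type metalloproteinases spread to both sides. Every metalloproteinase inhibitor and every cystatin tested lies above 0 in both comparisons, and of these only CST3 is called.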

How the data were processed

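The labels' protocols name TRIzol extraction and a TruSeq library kit, and the submitters' processing notes list, without their roles, featureCounts 1.5.3, STAR 2.5.2b, cutadapt and Bowtie2 2.3.3.1. No coordinates are printed, because the build, annotation and strand setting were not given in the sources used here. The deposited count tables hold raw whole-number counts, and the counts of the 2 runs of each of the 11 libraries were added. The chi-square per gene between 2 runs of a library was 1.39 to 1.52, and between libraries of a group 31.9 to 111.9. A nameless row with up to 0.000522% of counts was left out. The deposited FPKM tables, 1 per run, had been made equal in distribution between libraries before deposit, as the values show (for 87.6% of genes in run 1, values were whole multiples of 1 step to within 0.0002, with the same quantiles in every library). They served for levels between genes and as an alternative unit. RefSeq names (ARS-UI_Ramb_v3.0) matched 18717 of 26200 symbols and all 10 genes.

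Genes were filtered with filterByExpr by group, scaled by TMM and tested in 1 edgeR quasi-likelihood fit of all 3 groups with no block, with Benjamini-Hochberg adjustment over 14979 genes. Versions were edgeR 4.0.16 and limma 3.58.1 under R 4.3.3. The SE is the absolute log2 fold change over the square root of F. Ratios used log2 CPM with a prior count of 2 and two-sided exact permutation tests. Named outside the 10 genes were, per list, the up to 4 members with the smallest p. OCSTAMP, CALCR, DCSTAMP and ATP6V0D2 were named outside this rule, as the rest of the osteoclast list, and further exceptions are given where they are named. Alternatives were DESeq2 1.42.0, RLE size factors, limma-voom, no filter, FPKM with pseudocounts of 1 and 0.1, only the 2 groups compared, a replicate block, each library left out, and D3 left out. The code of the fit was checked on counts simulated from the means and spreads of these data. That simulation held no animal effects, so it does not bear on how calls move when a library is left out. The replicates are separate animals. Aortic and pulmonary libraries with the same number come from the same animal per the labels, and their deviations from the group means correlated at -0.18 (D3), -0.13 (D4), 0.43 (D5) and 0.45 (D6). The 10 genes, the lists and the tests were chosen with earlier results of these data known.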

Additional observations from a re-analysis of the deposited data

Results flagged for a closer look

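In groups of 4 libraries, a library was noted when its gap to the nearest other was too large a share of the group's whole range by Dixon's test. Chance alone notes about 1 in 20 groups, and 5 were noted among 32 groups of gene levels and ratios, some of which share a gene. MMP16 in aortic replicate 1 (animal D3) was at 37.4 CPM, against 13.3 to 14.6 CPM in the other aortic libraries, and D3 also gave the highest pulmonary value. MMP19 in aortic replicate 2 was at 15.2 CPM, against 2.09 to 3.35 CPM in the others. In the same library the log2 ratio of MMP2 to TIMP2 was -2.31, against -2.82 to -2.76. MMP2 in pulmonary replicate 2 was at 74.5 CPM, against 154 to 167 CPM. MMP19 in pulmonary replicate 3 was low, at 1.69 CPM against 2.57 to 2.66 CPM.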

How the results depend on the processing

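Of the values of single genes under alternatives, 502 kept their direction and their side of the threshold, 36 no longer passed, 5 passed only under the alternative and 14 changed sign; the cause was not tested. The number of genes called against pulmonary sinus was 1699, with 2997 by DESeq2, 479 with only the 2 groups compared and 452 to 2753 with 1 library left out (452 without autograft replicate 2, 522 and 505 without pulmonary replicates 2 and 3, 1004 without pulmonary replicate 4, 2753 without pulmonary replicate 1). Against aortic sinus it was 356, with 1469 by DESeq2, 110 without D3, 25 to 210 with any 1 library left out and 400 without pulmonary replicate 1 and autograft replicate 1 together. Of the 10 genes, 5 were called against pulmonary sinus, with 7 by DESeq2, 3 on FPKM of mean at least 1, 3 with only the 2 groups and 3 to 5 with 1 library left out. Against aortic sinus 3 were called, with 5 by DESeq2, 1 on FPKM of mean at least 1, 1 without D3, 1 without pulmonary replicate 1 and autograft replicate 1 (chosen after seeing the data) and 1 to 3 with 1 library left out. A replicate block by animal gave 1611 and 361 called genes and 0 between the native tissues, and among the 10 genes it changed no call against limma-voom without the block.

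Most sign changes were in differences near 0. The largest difference that turned was that of MMP16 between aortic and pulmonary sinus (log2 fold change 0.40 ± 0.58, SE). The log2 fold change of MMP14 against pulmonary sinus was 0.04 on every FPKM setting -0.27 to 0.22 with 1 library left out, and -0.41 without pulmonary replicate 1 and autograft replicate 1. Against aortic sinus MMP14 was -0.16 without pulmonary replicate 1 and autograft replicate 1, and -0.15 to 0.32 with 1 library left out. Aortic against pulmonary sinus, TIMP2 was -0.05 without D3. With 1 library left out there, the ranges were -0.08 to 0.20 for TIMP2, -0.12 to 0.79 for MMP16, -0.03 to 0.27 for MMP2, -0.04 to 0.35 for CTSK and -0.24 to 0.06 for MMP14. The ratios between the native tissues ranged from -0.26 to 0.21 for MMP2 to TIMP1, -0.004 to 0.29 for MMP2 to TIMP2, -0.33 to 0.05 for MMP14 to TIMP2 and -0.06 to 0.20 for CTSK to CST3. Depth limits MMP19 and ADAM12 most, whose lowest counts were 36 and 13.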

Other observations

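The genes whose log2 CPM followed each of the 10 most closely were read over the 11 libraries, among 9969 genes with a mean of at least 5 CPM. These correlations describe libraries that share the group differences, so the value within groups is given beside each. MMP2 was nearest to SMIM3 (r = 0.96, 0.69 within groups) and to COL1A1 (r = 0.96, 0.73 within groups). CTSK was nearest to LAPTM4A (r = 0.99, 0.98 within groups) and LAMP2 (r = 0.98, 0.97 within groups), both genes of lysosomal membrane proteins. ADAM12 was nearest to NOP16 (r = 0.97, 0.86 within groups) and THBS1 (r = 0.97, 0.83 within groups). MMP11 was nearest to SLC22A3 (r = 0.97, 0.93 within groups), MMP16 to C2H2orf88 (r = 0.98, 0.96 within groups) and TIMP1 to DRAM1 (r = 0.98, 0.96 within groups). MMP14 was nearest to SLC38A7 (r = 0.95, 0.97 within groups).

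Among the 10 genes themselves, over the same 11 libraries, MMP2 and CTSK moved together (r = 0.91, 0.70 within groups), as did CTSK and ADAM12 (r = 0.91, 0.69 within groups). MMP2 and MMP11 ran opposite (r = -0.89, -0.43 within groups). MMP14 had an r between -0.34 and 0.40 with each of the other genes.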
